A study of Bombus terrestris audax with 20 samples.

Results

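The stage change from mid to late instar was followed here within queen-destined larvae of the bumblebee Bombus terrestris audax. Late-instar queen-destined larvae (LQ, the fourth larval instar) were set against mid-instar queen-destined larvae (MQ, the third larval instar), with 3 libraries of each, LQ1, LQ2 and LQ4 against MQ1, MQ2 and MQ4. These are 6 of the 17 libraries in the deposited table, chosen by their labels alone. The series has 20 libraries, and the authors had left MQ3, LQ3 and MW1 out of the table. All 14817 features of the table were tested, 10005 of them annotated and 4812 unannotated transcripts. All larvae were female, and the labels name no mutation and no drug. Queen-destined larvae came from colonies whose queen had been removed, and worker-destined larvae from colonies that kept theirs. Each library is mRNA-seq of RNA from several whole larvae of 1 colony, pooled, and LQ and MQ libraries with the same number came from the same colony, so that 3 colonies stand behind both stages. Late- and mid-instar worker-destined larvae (LW, 3 libraries, and MW, 2 libraries) and early-instar queen-destined larvae (EQ, 3 libraries, the first and second instars) are used only for comparison.

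Female bumblebee larvae grow through a series of moults, and the last larval instar is the one in which they feed most, store reserves and prepare to spin and pupate. Insect larvae store amino acids in hexamerins, large proteins that the fat body (the insect counterpart of liver and adipose tissue) releases into the blood and takes up again before the pupa forms. Ecdysteroids trigger each moult, and juvenile hormone, acting through the transcription factor Krüppel homologue 1 (Kr-h1), keeps a moult larval. When juvenile hormone falls at the end of larval life, the next moult leads to the pupa. Cytochrome P450 enzymes make and break down both hormones and also process food-borne compounds.

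The values are normalised abundances. The authors' length correction and quantile normalisation of the read counts mean that each library has nearly the same distribution of values and a change is relative to the other transcripts of the same larvae. The reads behind a value are unknown, and errors rest on the spread between pools alone. The median abundance over all libraries was 118 and the highest was 390971. Larvae were taken whole, so fewer cells of a type and less RNA per cell cannot be told apart. All log2 fold changes are LQ minus MQ on the log2(abundance + 20) scale, which shrinks the changes of features near or under an abundance of 20, and are given ± SE. Adjusted p-values are from limma, two-sided, with Benjamini-Hochberg adjustment over all 14817 features and 0.05 as the threshold.

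Between LQ and MQ libraries the mean absolute difference per feature was 0.495 to 0.569 on the log2 scale, against 0.217 to 0.278 between LQ libraries and 0.247 to 0.342 between MQ libraries. MQ1 held 43 features at 10 times or more the level of both other MQ libraries, 3 of which were called lower in LQ. A further set of 15 features split the 17 libraries into 9 high and 8 low, with LQ1, LQ4, MQ1 and MQ4 high and LQ2 and MQ2 low, and 0 of the 15 were called between the stages. The part of these libraries in the other results was not tested beyond leaving each library out in turn.

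The transcriptome changed widely between the instars, with about as many features higher as lower in LQ. Limma called 3036 features higher in LQ (20.5% of all tested) and 2759 lower (18.6%), which makes 5795 in all (39.1%). The median log2 fold change over all features was -0.01. Of the called features, 5492 (94.8%) had ranges of the LQ and MQ libraries that did not overlap, against 48.5% of all features, 25.5% with LQ above MQ and 23.1% with LQ below MQ. Changes of more than 1 on the log2 scale were found for 772 of the features called higher and 661 of those called lower. The upper tail was longer, with 88 features called above 3 and 27 called below -3.

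By the stricter rule of an offset fold change (the log2 ratio between the nearest libraries of both stages after adding 20) over 1, 389 features were higher in LQ (2.63% of all) and 219 were lower (1.48%). Annotated and unannotated features leaned opposite ways. Among annotated features 2479 were called higher (24.8%) and 1787 lower (17.9%), and among unannotated transcripts 557 were called higher (11.6%) and 972 lower (20.2%). Product names could be read for 451 features that are not uncharacterised, and of these 134 (29.7%) were called higher and 76 (16.9%) lower. With the replicate number, which here marks the colony, as a block in a fit of the 6 libraries, the counts over all features were 2162 higher and 1995 lower, and over the features with a name 72 higher and 50 lower.

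**Figure D1:**
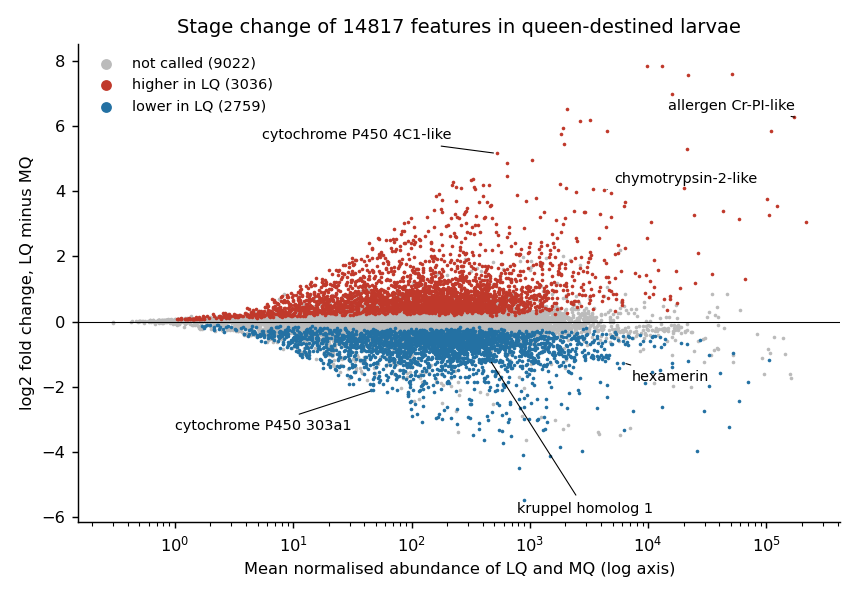
Log2 fold change (LQ minus MQ) of each of the 14817 features against its mean normalised abundance in LQ and MQ (log axis, means under 0.3 drawn at 0.3), with red for features called higher in LQ, blue for those called lower and grey for the rest. The cloud reaches 7.86 above and -5.50 below 0, and the allergen Cr-PI-like gene stands at the upper right as an abundant transcript with a large rise.

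A storage protein gene had the largest rise among the features with a name. The allergen Cr-PI-like gene (LOC100646552, Bter_1.0 NC_015772.1, 15766304 to 15770571) is named after a cockroach allergen that belongs to the hexamerin and arylphorin family of storage proteins. Its abundance was 314915, 390971 and 314915 in LQ1, LQ2 and LQ4, against 3140.0, 3662 and 7002 in MQ1, MQ2 and MQ4 (log2 fold change 6.29 ± 0.28, adjusted p = 1.78e-08). Every LQ library was far above every MQ library, and by mean abundance the gene held rank 2 among all features in LQ and rank 280 in MQ. The values repeat between libraries because quantile normalisation gives the features of 1 rank the same value. As 390971 is the highest value of the table, the size of the rise is bounded by rank.

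The gene named hexamerin (LOC100650745, NC_015777.1, 4103831 to 4107629) went the other way. It had 2143, 4938 and 3833 in LQ, against 7762, 6385 and 11398 in MQ (log2 fold change -1.26 ± 0.28, adjusted p = 0.003). All LQ libraries lay below all MQ libraries, but with the replicate block the adjusted p was 0.054, above the threshold. Just beside it on the same sequence, the annotated feature NC_015777.1_4095027_4098619, which the names read here do not cover, averaged 214912 ± 19387 in LQ and 4407 ± 2910.4 in MQ (SD, n = 3 each, log2 fold change 5.84 ± 0.43, adjusted p = 9.11e-07). A further neighbour, NC_015777.1_4085423_4089478, had 57387, 110353 and 136799.9 in LQ, against 260.4, 171 and 2160.4 in MQ (log2 fold change 7.61 ± 0.72, adjusted p = 7.20e-06). The feature NC_015777.1_4082401_4091929 overlaps it and rose alike (7.57), so the reads of this pair cannot be told apart. On the other side of hexamerin the next 4 features changed by -0.83 to 0.13 on the log2 scale. Reads aligning at several places were kept, so similar genes at this place can share reads.

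**Figure D2:**
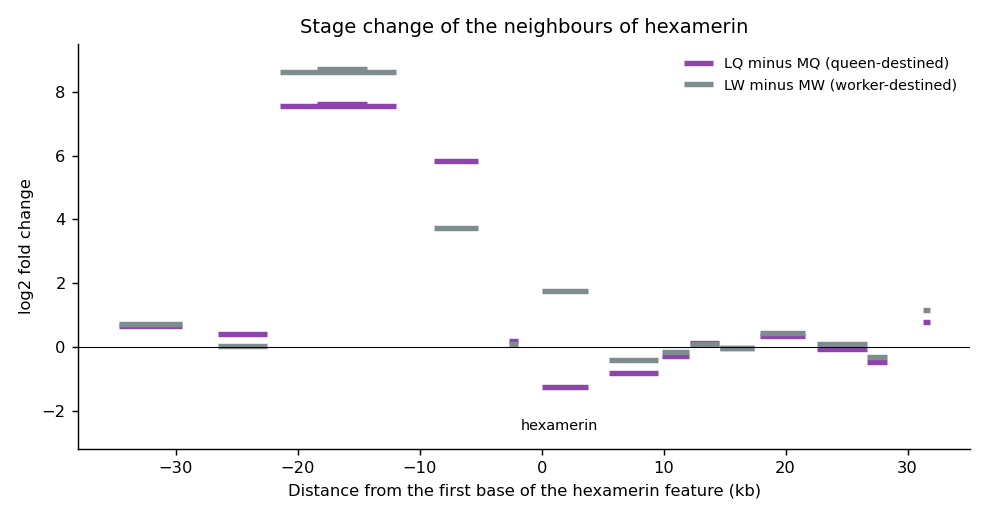
Log2 fold change of the features around hexamerin on the y axis against the distance in kb from its first base, with bars as long as the features, in violet for LQ minus MQ and in grey for LW minus MW. In queen-destined larvae hexamerin lies at -1.26 while 3 neighbours to its left lie between 5.84 and 7.61.

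The list of 9 storage protein and nutrition signalling genes holds hexamerin but not the allergen Cr-PI-like gene, whose name its search terms do not match. Of its members 2 were called higher and 1, hexamerin, lower (33.3%, against 39.1% of all features and 46.6% of those with a name). The median log2 fold change was 0.04, against -0.01 over all features and 0.06 over those with a name. The TOR target ribosomal protein S6 kinase beta-1-like, a promoter of growth, had 567, 561 and 605 in LQ, against 335, 431 and 333 in MQ (log2 fold change 0.64 ± 0.10, adjusted p = 0.0003). Protein charybde-like, an inhibitor of TOR signalling in Drosophila, was called higher too (log2 fold change 0.76 ± 0.24, adjusted p = 0.024), but its ranges overlapped, the call was lost without LQ1, LQ2, MQ1 or MQ4, and the adjusted p with the replicate block was 0.085. The insulin-like growth factor I gene had 37.2, 88.2 and 47.9 in LQ and 34.8, 58.3 and 42.5 in MQ, and its overlapping ranges were not called (log2 fold change 0.22 ± 0.22, adjusted p = 0.46). Both insulin-like peptide receptor genes, which pass the signal of such growth factors into the cell, stayed under an abundance of 20 in each of the 6 libraries and were not called (log2 fold change 0.04 for each). With the block 1 member of the list, the kinase, was called higher and 0 were called lower.

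Kr-h1 was the hormone-response gene with the largest fall. Its abundance was 296, 232 and 296 in LQ, against 684, 596 and 629.5 in MQ (log2 fold change -1.16 ± 0.14, adjusted p = 5.61e-05), with no overlap. Of the 8 named members of the hormone and ecdysteroid list, 3 were called lower and 1 higher, with a median of -0.14. That is 50%, against 39.1% of all features and 46.6% of those with a name. The nuclear receptor HR38, an orphan receptor of the ecdysone pathway in Drosophila, had 9.17, 6.91 and 9.19 in LQ, against 30.9, 21.8 and 16.9 in MQ (log2 fold change -0.59 ± 0.14, adjusted p = 0.0039). Hormone receptor 4-like was barely expressed, at 0.503, 0.448 and 0.925 in LQ and 4.23, 2.95 and 4.99 in MQ (log2 fold change -0.22 ± 0.04, adjusted p = 0.00076).

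The steroid hormone receptor ERR1, which in Drosophila larvae switches on sugar-burning growth metabolism, was the member called higher. It had 102, 109 and 104 in LQ, against 37.8, 35.9 and 41.9 in MQ (log2 fold change 1.10 ± 0.11, adjusted p = 9.64e-06). Values were close between stages for the Broad-Complex gene, the pupal specifier of insects, at 61.0, 75.4 and 68.6 in LQ and 68.4, 67.3 and 76.6 in MQ (log2 fold change -0.04 ± 0.10, adjusted p = 0.78). Cytochrome P450 307a1-like, of the family that acts early in ecdysteroid synthesis, had 38.6, 43.9 and 43.0 in LQ and 35.7, 59.8 and 51.0 in MQ (log2 fold change -0.14 ± 0.14, adjusted p = 0.45). The remaining members, ecdysone-induced protein 78C and the orphan steroid hormone receptor 2, were not called (-0.02 and -0.15).

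The other cytochrome P450 genes with a name changed strongly and in both directions. Cytochrome P450 4C1-like (NC_015772.1, 9567307 to 9572013), of a family first described in the cockroach fat body, had 948, 1230.1 and 962 in LQ, against 6.50, 8.47 and 14.1 in MQ (log2 fold change 5.17 ± 0.21, adjusted p = 1.01e-08). Cytochrome P450 6k1-like (NW_003568878.1, 25 to 931) had 76.6, 230.3 and 114 in LQ, against 1.97, 0 and 0 in MQ (log2 fold change 2.84 ± 0.29, adjusted p = 1.24e-05), so it was listed at 0 in MQ2 and MQ4. Probable cytochrome P450 303a1 (NC_015768.1, 4742166 to 4745530), which Drosophila needs for its sensory bristles, moved in the opposite direction. It had 3.79, 3.60 and 7.24 in LQ, against 66.5, 128 and 75.7 in MQ (log2 fold change -2.11 ± 0.19, adjusted p = 4.24e-06). None of these 3 genes had overlapping ranges, and together with cytochrome P450 307a1-like they make the 4 named members, 2 of them called higher and 1 lower. That is 75%, against 39.1% of all features and 46.6% of those with a name.

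In lipid and steroid metabolism 0 of 7 named members were called higher and 3 lower, and the median log2 fold change was -0.69. The shares called higher and lower were 20.5% and 18.6% of all features, and 29.7% and 16.9% of those with a name. Estradiol 17-beta-dehydrogenase 11, a lipid-droplet enzyme in mammals, had 91.7, 173 and 62.3 in LQ, against 282, 386 and 289 in MQ (log2 fold change -1.47 ± 0.33, adjusted p = 0.0031). Its relative estradiol 17-beta-dehydrogenase 2 had 363, 262 and 219 in LQ, against 579, 533 and 628 in MQ (log2 fold change -1.02 ± 0.14, adjusted p = 9.06e-05). A putative fatty acyl-CoA reductase, the kind of enzyme that makes fatty alcohols for waxes, fell as well (log2 fold change -1.32 ± 0.29, adjusted p = 0.0032). Fatty acid synthase-like had 504, 688 and 1266 in LQ, against 1002, 1296 and 1453 in MQ, and its overlapping ranges were not called (log2 fold change -0.69 ± 0.34, adjusted p = 0.13). The gene passed the test only without LQ4.

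Among digestive enzymes, chymotrypsin-2-like (LOC105665851, NC_015767.1, 10624627 to 10627639), a protein-cleaving enzyme of the gut, stood out. It had 6843, 8269 and 8626 in LQ, against 302, 567 and 559 in MQ (log2 fold change 4.04 ± 0.27, adjusted p = 4.88e-07). The LQ libraries lay in a narrow band well above MQ. A much longer annotated feature spans the gene, so that some reads may count for both. Of the 8 named members 2 were called higher and 1 lower, with a median of 0.22. That is 37.5%, against 39.1% of all features and 46.6% of those with a name. Carboxypeptidase B-like was called higher at low abundance, with 25.6, 47.9 and 29.1 in LQ, against 7.61, 16.0 and 14.8 in MQ (log2 fold change 0.71 ± 0.16, adjusted p = 0.0041), and phospholipase A1 fell (log2 fold change -1.92 ± 0.51, adjusted p = 0.0091).

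The most abundant digestive enzymes were not called. Chymotrypsin-1-like had 26112, 65327 and 30921 in LQ, against 24661, 62678 and 26112 in MQ, and trypsin 3A1-like had 35528, 53333 and 36772 in LQ, against 20611, 60111 and 22679 in MQ. Both were highest in the libraries of replicate 2 at both stages, and trypsin 3A1-like passed the test only without MQ2. The remaining members, aminopeptidase N and a pair of dipeptidase 1-like genes, had log2 fold changes between 0.06 and 0.30.

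Beyond these lists, the largest rises among features with a name took in a pair of repeat-rich proteins named after yeast proteins. Flocculation protein FLO11-like had 10984, 9377 and 6196 in LQ, against 81.4, 94.5 and 258 in MQ (log2 fold change 5.87 ± 0.48, adjusted p = 2.23e-06), and the putative GPI-anchored protein at NW_003566184.1, 4 to 1200 (LOC105666895) had 4652, 4182 and 2659 in LQ, against 41.0, 49.0 and 127 in MQ (log2 fold change 5.46 ± 0.41, adjusted p = 1.10e-06). Metabolic enzymes followed. Purine nucleoside phosphorylase-like, an enzyme of purine salvage, had 4505, 2872 and 1599 in LQ, against 232, 544 and 210.0 in MQ (log2 fold change 3.11 ± 0.38, adjusted p = 5.15e-05), with a wide spread in LQ.

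Ornithine aminotransferase, which links ornithine to glutamate and proline, was even within each stage, with 3009.8, 2461 and 2561 in LQ, against 533, 533 and 512 in MQ (log2 fold change 2.30 ± 0.20, adjusted p = 3.41e-06). PLEKHM2, named after a mammalian protein that couples lysosomes to kinesin, had 1001, 1189 and 1368 in LQ, against 167, 159.8 and 154 in MQ (log2 fold change 2.73 ± 0.20, adjusted p = 9.11e-07). Sialidase-like had 58.7, 59.9 and 35.7 in LQ, against 0.559, 0.487 and 2.75 in MQ (log2 fold change 1.73 ± 0.12, adjusted p = 5.19e-07). MOB kinase activator-like 1, in Drosophila a growth-restraining member of the Hippo pathway, rose by a smaller but even step, to 695, 640.1 and 651 in LQ, against 244, 261 and 251 in MQ (log2 fold change 1.33 ± 0.10, adjusted p = 1.27e-06).

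Transporters moved both ways. Of 7 named sugar and amino acid transporters 3 were called higher and 2 lower, and with the replicate block 2 and 1. The share called without the block was 71.4%, against 39.1% of all features and 46.6% of those with a name. Facilitated trehalose transporter Tret1-like carries trehalose, the main blood sugar of insects, and had 1538, 1096 and 2213 in LQ, against 448, 677 and 529.9 in MQ (log2 fold change 1.48 ± 0.21, adjusted p = 0.00015). It overlaps RING-box protein 2, a part of ubiquitin ligases, which rose alike (log2 fold change 1.29 ± 0.20, adjusted p = 0.00031), and without strand the reads of such a pair cannot be separated. Monocarboxylate transporter 12-B had 166, 165 and 116 in LQ, against 25.9, 33.8 and 29.2 in MQ (log2 fold change 1.76 ± 0.18, adjusted p = 1.12e-05). Proton-coupled amino acid transporter 4 went down, with 216, 206 and 207 in LQ, against 470.3, 535 and 577 in MQ (log2 fold change -1.25 ± 0.18, adjusted p = 0.00017). A second trehalose transporter gene, Tret1, had overlapping ranges (log2 fold change 0.33 ± 0.37, adjusted p = 0.5) and passed only without MQ2, its high library at 1041.

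The largest falls among features with a name were those of genes named after a cuticle collagen and a subunit of the transcription machinery. Cuticle collagen 2C-like had 59.6, 94.2 and 25.4 in LQ, against 447, 534 and 723 in MQ (log2 fold change -2.95 ± 0.65, adjusted p = 0.003). Mediator of RNA polymerase II transcription subunit 15 had 25.9, 24.4 and 17.0 in LQ, against 200.4, 411 and 328 in MQ (log2 fold change -2.93 ± 0.58, adjusted p = 0.0015). Signalling genes fell as well, with adenosine receptor A2b-like at 7.88, 5.60 and 7.48 in LQ, against 42.7, 76.6 and 60.1 in MQ (log2 fold change -1.54 ± 0.16, adjusted p = 1.28e-05), and the cAMP-dependent kinase catalytic subunit PRKX, which acts in the pathway that many such receptors feed, at -1.67.

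Cyclin-dependent kinase 4-like, a driver of entry into the cell cycle, had 19.2, 22.6 and 20.3 in LQ, against 74.5, 69.3 and 92.8 in MQ (log2 fold change -1.27 ± 0.24, adjusted p = 0.0012). Protein Skeletor, in Drosophila a protein of the spindle matrix, had 199, 134 and 170.3 in LQ, against 797, 581 and 607 in MQ (log2 fold change -1.86 ± 0.26, adjusted p = 0.00015). POU domain protein CF1A, known in Drosophila as ventral veins lacking and needed there for the tracheae, had 41.6, 34.2 and 30.9 in LQ, against 98.4, 115 and 107 in MQ (log2 fold change -1.19 ± 0.15, adjusted p = 5.47e-05). MOXD1 homolog 1, of a family of copper monooxygenases, fell as well (log2 fold change -1.22 ± 0.15, adjusted p = 4.69e-05). None of these genes had an LQ library above an MQ library.

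**Figure D3:**
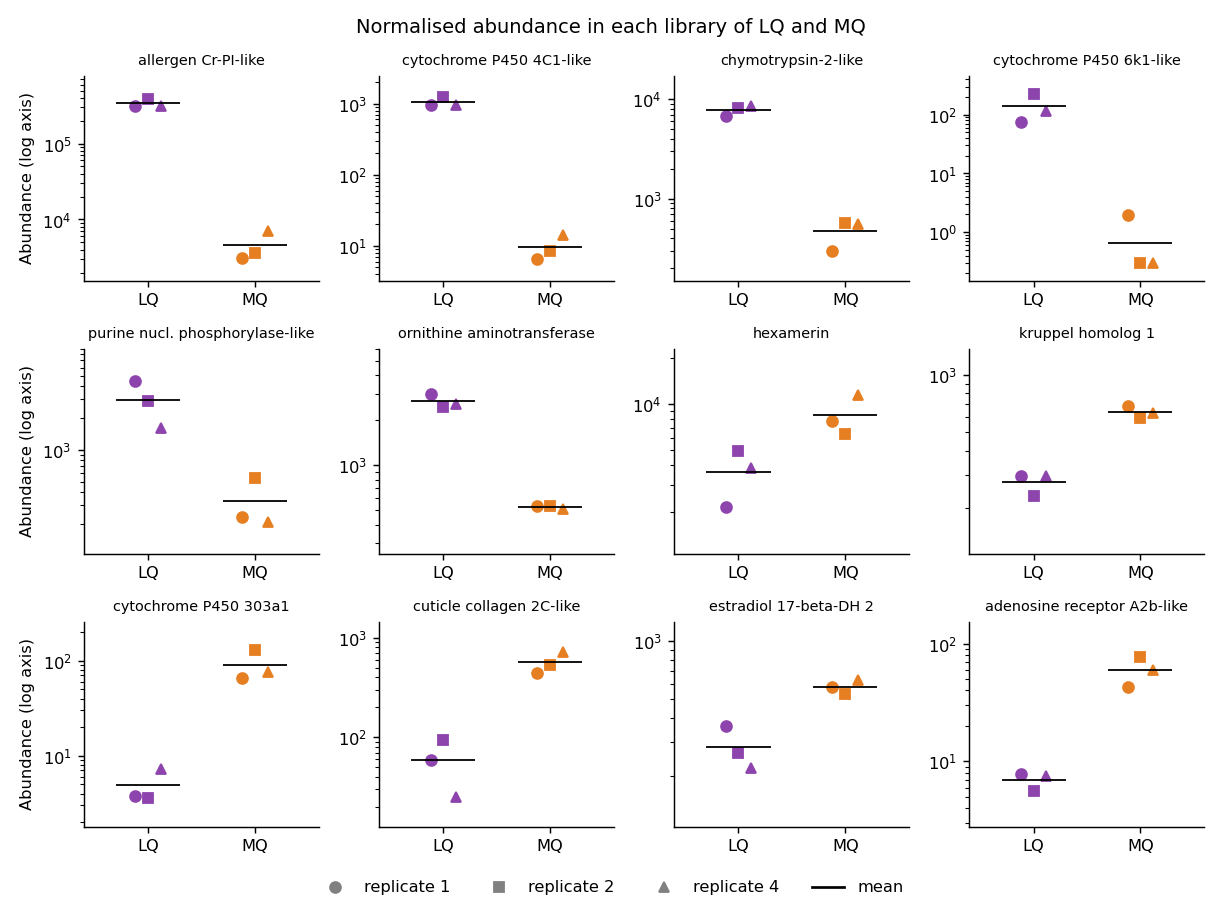
Normalised abundance of 12 genes in each library (log axes, values at 0 drawn at 0.3), with LQ on the left in violet and MQ on the right in orange, symbols for the replicates 1, 2 and 4 and a line at the mean. In every panel the LQ libraries lie wholly above or wholly below the MQ libraries, and ornithine aminotransferase shows the tightest groups, with means of 2677 in LQ and 526 in MQ.

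In the Golgi and vesicle transport list 11 of 12 members were called, against 39.1% of all features and 46.6% of those with a name. Of its members 8 were called higher and 3 lower, with a median of 0.35. The changes were small. The vesicle GTPases Rab-8A and Rab-11A had log2 fold changes of 0.79 ± 0.12 and 0.51 ± 0.07, and Golgi phosphoprotein 3 homolog rotini one of 0.62 ± 0.11. Golgin-84, a tether of the Golgi, fell, with 93.5, 91.1 and 90.6 in LQ, against 180.2, 172 and 160.5 in MQ (log2 fold change -0.77 ± 0.09, adjusted p = 4.27e-05). With the replicate block 6 members were called higher and 1 lower. Among 13 ubiquitin ligase genes 6 were called higher and 1 lower (53.8%, against 39.1% of all features and 46.6% of those with a name). Their median was 0.28, and with the replicate block the counts were 4 and 1. Those called higher in both fits include RING finger protein 11 (0.75 ± 0.11) and F-box only protein 33 (0.93 ± 0.10).

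Genes of muscle contraction were lower where larger changes were called. Troponin C isoform 3, the calcium sensor of the thin filament, had 954, 749 and 824 in LQ, against 1541, 2009.9 and 1342 in MQ (log2 fold change -0.92 ± 0.18, adjusted p = 0.0015), and sarcomeric alpha-actinin had 637, 509 and 577 in LQ, against 1061, 1204 and 1015 in MQ (log2 fold change -0.91 ± 0.23, adjusted p = 0.0073). Of 12 members 2 were called lower and 1 higher (25%, against 39.1% of all features and 46.6% of those with a name). The gene called higher was zeta-sarcoglycan, at abundances of 2.13 in LQ and 0.824 in MQ. Its call was lost without any 1 of the 6 libraries and with the replicate block (adjusted p = 0.19). Summed over the list, abundance was 2547 to 2916 in LQ and 3451 to 4777 in MQ. This gap rests on troponin C and alpha-actinin, since the sums of the other members overlapped between the stages. How far the share of muscle moved the other results was not tested.

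Of the 8 cilia genes 2 were called higher and 4 lower (75%, against 39.1% of all features and 46.6% of those with a name). Cilia- and flagella-associated protein 69-like (0.03) and WD repeat-containing protein 63-like (-0.05) were not called. The 3 dynein regulatory complex subunit 7-like genes, parts of moving cilia and of sperm tails, were called lower, at -0.93, -0.69 and -0.58, as was protein tilB homolog, at -0.73. The last pair of these were not called with the replicate block, with adjusted p-values of 0.069 and 0.073, and tilB was lost without LQ2 or MQ1. The centrosomal protein of 104 kDa (0.82 ± 0.14) and dynein light chain 1, axonemal-like (1.12 ± 0.29) were called higher, the second at 54.5, 12.5 and 19.3 in LQ, against 0.525, 0.548 and 1.88 in MQ.

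Genes of the nervous system were called about as often as all features, and somewhat less often than features with a name. In the synapse list 8 of 31 were called higher and 4 lower (38.7%, against 39.1% of all features and 46.6% of those with a name). The median was 0.06, and with the replicate block the counts were 5 and 1. Tryptophan 5-hydroxylase 1, the first enzyme of serotonin synthesis, had 24.3, 24.6 and 20.8 in LQ, against 4.70, 7.56 and 6.40 in MQ (log2 fold change 0.72 ± 0.11, adjusted p = 0.00021). The kinesin unc-104, a carrier of synaptic vesicles, and the calcium-dependent secretion activator rose by 0.44 ± 0.07 and 0.42 ± 0.07. Glutamate-gated chloride channel alpha had the largest change of the list, with 2640.4, 2716 and 3081 in LQ, against 611, 1304 and 623 in MQ (log2 fold change 1.80 ± 0.33, adjusted p = 0.00091). Its long feature encloses several other features, trypsin 3A1-like among them, so its value may hold their reads. The summed abundance of the list, 3132 to 3579 in LQ and 1108 to 1990 in MQ, rests mostly on this gene.

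In the list of 13 ion channels 3 were called higher and 1 lower, with a median of 0.08. That is 30.8%, against 39.1% of all features and 46.6% of those with a name. With the replicate block the counts were 2 and 1. Sodium channel protein Nach was called higher at means of 3.82 in LQ and 0.400 in MQ. Its call was lost without LQ1 or LQ4, and its adjusted p with the block was 0.082. Both directions came from voltage-dependent calcium channel subunits, 1 at 39.8, 38.6 and 20.5 in LQ, against 3.47, 4.94 and 4.05 in MQ (log2 fold change 1.11 ± 0.14, adjusted p = 7.41e-05), and the other at 40.2, 39.0 and 32.7 in LQ, against 66.7, 71.6 and 70.4 in MQ (log2 fold change -0.65 ± 0.09, adjusted p = 9.79e-05). Of 26 genes of axon guidance and cell adhesion 9 were called higher and 2 lower, with log2 fold changes between -0.54 and 0.42. That is 42.3%, against 39.1% of all features and 46.6% of those with a name. With the replicate block the counts were 2 and 1. Of those called higher, all but semaphorin-5A had means under 20 at both stages, such as semaphorin-1A at 3.03 in LQ and 1.46 in MQ (log2 fold change 0.10). Neurexin-4, a part of septate junctions in Drosophila, had 99.0, 86.9 and 115 in LQ, against 167, 138 and 157 in MQ (log2 fold change -0.54 ± 0.11, adjusted p = 0.0016).

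Patterning genes of wings and imaginal discs, the tissues that build the adult, were also called about as often as all features. Of 26 members 6 were called higher and 4 lower (38.5%, against 39.1% of all features and 46.6% of those with a name). The median was 0.05, and with the replicate block the counts were 1 and 2. Enhancer of split m7 protein-like, a target of Notch signalling, had the largest fall, with 98.6, 93.2 and 97.8 in LQ, against 168, 205 and 243 in MQ (log2 fold change -0.94 ± 0.12, adjusted p = 7.88e-05). Protein big brother-like, a partner of Runt transcription factors, had 40.0, 60.1 and 29.2 in LQ, against 15.3, 16.1 and 19.8 in MQ (log2 fold change 0.74 ± 0.14, adjusted p = 0.0009). Protein distal antenna-like had 20.7, 22.9 and 22.8 in LQ, against 32.9, 39.9 and 34.8 in MQ (log2 fold change -0.40 ± 0.09, adjusted p = 0.0046).

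The lists left over held fewer calls or were split. Called were 50% of RNA binding and translation genes, 18.2% of chromatin genes, 18.2% of extracellular matrix genes and 33.3% of cuticle and chitin genes. The shares were 39.1% of all features and 46.6% of those with a name. Of 18 RNA binding and translation genes 5 were called higher, led by vigilin (0.93 ± 0.14), and 4 lower, led by a serine/arginine repetitive matrix protein (-1.08 ± 0.25), and with the replicate block 2 and 3. Of 11 chromatin genes 1 was called higher, the repressor YY1-like (0.42 ± 0.09), and 1 lower, histone deacetylase 4 (-0.42 ± 0.09, adjusted p = 0.057 with the replicate block). Of 11 extracellular matrix genes 2 were called lower, laminin subunit alpha and testican-2 (-0.60 and -0.26), and with the block laminin alone was called. The ranges of laminin overlapped and its call was lost without LQ1, LQ2, MQ1 or MQ4, that of testican-2 was lost without LQ1, LQ4 or MQ4, and the fit of the 6 libraries without the block called 0 members. Of the 6 genes that the cuticle and chitin list took by product name, 1 was called lower, the collagen-like gene above. Called higher was 1, a glycine-rich cell wall protein (0.32), whose adjusted p with the block was 0.14. Its call was also lost without any library but MQ1. Endochitinase and laccase-4-like were not called, and neither were the 2 mobile-element genes.

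**Figure D4:**
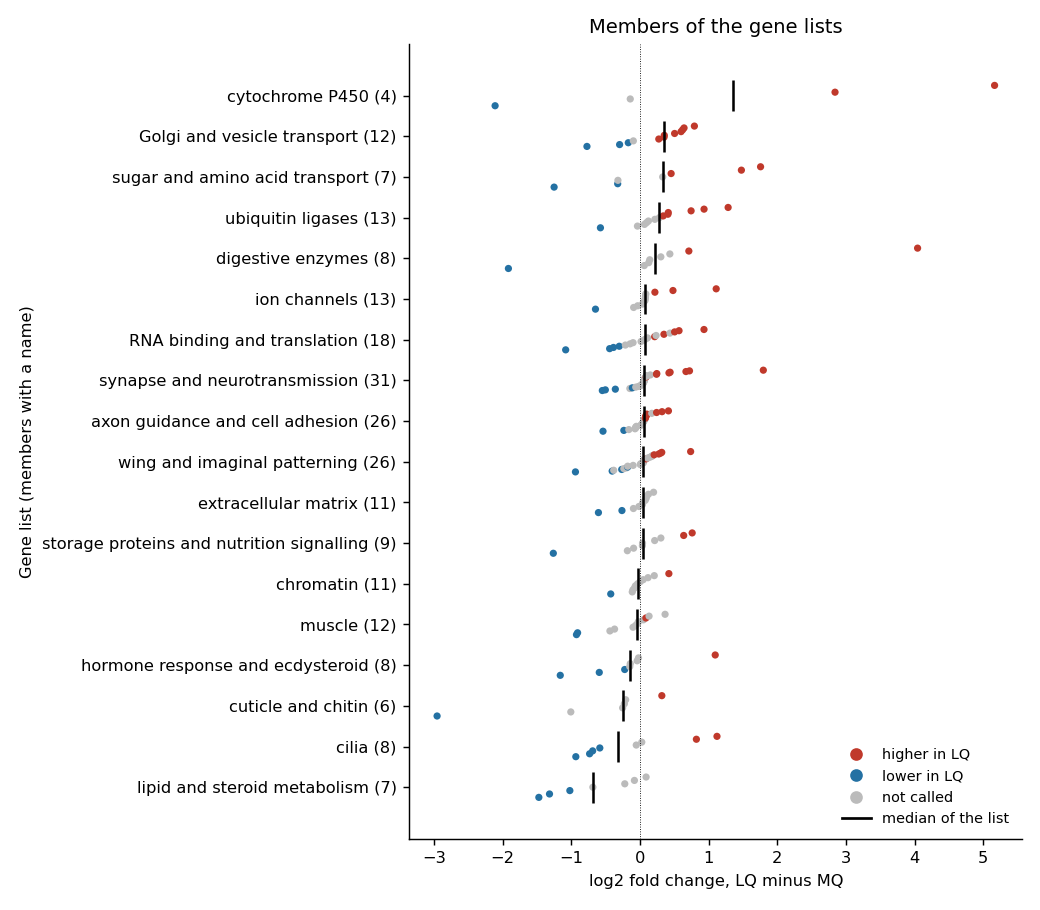
Log2 fold change (LQ minus MQ, x axis) of each named member of 18 gene lists (y axis, number of members in brackets), in red where called higher in LQ, in blue where called lower and in grey otherwise, with a black line at the list's median. The medians run from -0.69 for lipid and steroid metabolism to 1.35 for cytochrome P450, and most lists have members on both sides of 0.

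The instars shared part of their most abundant transcripts. Of the 20 most abundant features of LQ, 11 were also among the 20 most abundant of MQ, and 10 of the 20 were called higher in LQ and 1 lower. The first in LQ, NC_015768.1_10636076_10637965, had 390971, 314915 and 390971 in LQ, against 78396, 10077 and 104466 in MQ (log2 fold change 3.06 ± 0.68, adjusted p = 0.0034). A group of 4 neighbouring annotated features between 8155580 and 8167787 of NC_015773.1 rose together, by 3.29 to 3.95. Its middle member NC_015773.1_8158161_8159101 had 209819, 226105 and 209819 in LQ, against 10843, 71506 and 7903 in MQ, and MQ2 was its highest MQ library. These features carry no name in the part of the annotation read here.

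In all, 7 runs of 3 or more neighbouring annotated features changed the same way by at least 2 on the log2 scale, 5 higher and 2 lower in LQ, with 23 features between them. They come from 178 annotated features called higher and 77 called lower by that size. The features of a run can overlap, as in the run beside hexamerin, so they are not independent.

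The largest changes of any kind belonged to features without a name in the part of the annotation read here. NC_015772.1_3820761_3823080 had 11295, 26511 and 20899 in LQ, against 32.6, 25.6 and 188 in MQ (log2 fold change 7.86 ± 0.60, adjusted p = 1.40e-06), and NC_015774.1_5275961_5282153 had 21412, 28666 and 27415 in LQ, against 68.7, 31.4 and 287 in MQ (log2 fold change 7.84 ± 0.63, adjusted p = 2.20e-06). Both were highest in MQ4 among the MQ libraries. NC_015776.1_5111145_5112767 had 31631, 33016 and 30289 in LQ, against 236, 145 and 349 in MQ (log2 fold change 6.99 ± 0.41, adjusted p = 1.70e-07). Among the 88 features called with a change above 3, the highest MQ library was MQ2 in 38, MQ4 in 33 and MQ1 in 17.

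The deepest fall was that of NC_015769.1_5235044_5245163, with 14.7, 17.0 and 27.4 in LQ, against 1656, 1689 and 1933 in MQ (log2 fold change -5.50 ± 0.59, adjusted p = 1.88e-05). It was followed by NC_015765.1_12883569_12884736, with 61.8, 41.9 and 45.1 in LQ, against 1586, 1320.2 and 1768 in MQ (log2 fold change -4.50 ± 0.59, adjusted p = 7.88e-05), and NC_015776.1_3633957_3636554, with 175, 115 and 127 in LQ, against 3662, 2141 and 2602 in MQ (log2 fold change -4.13 ± 0.47, adjusted p = 2.97e-05). NC_015767.1_2698404_2700314 and NC_015766.1_527798_530685 fell by 4.11 and 3.99 on the log2 scale. The second of this pair was highest in MQ1, at 10188, and its call was lost without LQ1, LQ4 or MQ1. Of all features NC_015771.1_3137226_3141484 had the largest offset fold change of MQ over MW, a place the study gives to pancreatic lipase-related Plrp2-like. It had 3633, 5359.9 and 4920.0 in LQ, against 12346, 22061 and 18556 in MQ. It was not called (log2 fold change -1.90 ± 0.86, adjusted p = 0.096), although its ranges did not overlap and the replicate block gave an adjusted p of 0.0063.

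Part of the stage change was shared with worker-destined larvae, whose libraries are separate from those of LQ and MQ. Between LW and MW 2145 features were called higher (14.5% of all) and 1575 lower (10.6%). Of the 3036 features called higher in LQ, 1500 (49.4%) were also called higher in LW, which is 69.9% of the LW list. Of the 2759 called lower in LQ, 914 (33.1%) were also called lower in LW, which is 58.0% of the LW list. Opposite calls were rare, with 24 features higher in LQ and lower in LW and 11 the other way. Across features the changes of both castes had a Pearson correlation of 0.71 and a Spearman correlation of 0.65, over features of a table that was normalised as a whole and that are not independent.

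The difference between the castes in their stage change (LQ minus MQ less LW minus MW, tested in the same fit) was called for 366 features (2.47%), with a difference above 0 for 211 (1.42%) and below 0 for 155 (1.05%). Of the 211, 164 were called higher in LQ, and of the 155, 124 were called lower in LQ. The change from MQ to LQ is itself a part of this difference, so these counts lean that way by construction. The signs of both stage changes were opposite in 203 of the 366 features. Caste goes with the presence of the colony queen in this design, and these cannot be told apart. The count moved with single libraries in both castes, and MW has 2. It was 81 without MW2 and 60 without MW3, 159 without LQ1, 163 without MQ4, 200 without LW2 and 1147 without MQ2.

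Among features with a name 22 of 451 (4.88%) were called for this difference, and the smallest p was that of chymotrypsin-2-like. In workers its abundance was 618, 826 and 1083 in LW1, LW2 and LW3, against 349 and 696 in MW2 and MW3 (log2 fold change 0.71 ± 0.30, adjusted p = 0.1), and the difference between castes was 3.33 ± 0.40 (adjusted p = 0.0027). The rise of cytochrome P450 6k1-like was also larger in queen-destined larvae, since workers had 0.995, 21.3 and 0 in LW, against 2.49 and 0 in MW (difference 2.55 ± 0.44, adjusted p = 0.012). The call for this gene held in 14 of the 17 alternatives that gave it a value.

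Hexamerin was called in opposite directions in the castes. While it was lower in LQ than in MQ, workers had 3384, 4025 and 4626 in LW, against 1201 and 1114 in MW (log2 fold change 1.77 ± 0.31, adjusted p = 0.0021). The difference was -3.03 ± 0.42 (adjusted p = 0.0043), and it was called in each of the 18 alternatives. The late instars of both castes lay in overlapping ranges, and MQ stood well above MW. The allergen Cr-PI-like gene rose in both, to 390971 in each of LW1, LW2 and LW3, against 1976 and 1846 in MW. Its difference was not called (-1.38 ± 0.43, adjusted p = 0.1). Since 390971 is the highest value of the table, a further rise in LW could not show.

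Several genes that fell in queen-destined larvae were not called between the stages in workers. Kr-h1 had 233, 166 and 156 in LW, against 203 and 199.7 in MW (difference -1.03 ± 0.22, adjusted p = 0.029), and 13 of 18 alternatives called it. Cytochrome P450 303a1 had 15.6, 5.64 and 4.40 in LW, against 13.7 and 6.36 in MW (difference -2.03 ± 0.28, adjusted p = 0.0043). Estradiol 17-beta-dehydrogenase 2 had 252, 235 and 222 in LW, against 187 and 167 in MW (difference -1.40 ± 0.20, adjusted p = 0.0056). For each of these 3 genes every MQ library lay above every library of LQ, LW and MW. Golgin-84 and MOXD1 homolog 1 had differences of -1.03 ± 0.14 and -1.40 ± 0.22.

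The feature with the largest rise, NC_015772.1_3820761_3823080, had 9570.2, 42070.2 and 29399 in LW, against 3694 and 3162 in MW. Of all features it had the largest offset fold change of MW over MQ, a place the study gives to a gene that it names. That name is not in the part of the annotation read here. MW was thus already far above MQ, and the difference of 5.13 ± 0.90 was called (adjusted p = 0.013). The fall of NC_015767.1_2698404_2700314 was also larger in queen-destined larvae (-3.80 ± 0.61, adjusted p = 0.011), since workers had 108, 61.4 and 16.4 in LW, against 79.5 and 61.3 in MW. In contrast NC_015774.1_5275961_5282153 and NC_015776.1_5111145_5112767, further leading rises without a name read here, were of similar size in both castes. Their differences of -0.93 ± 0.95 and -0.22 ± 0.61 were not called.

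**Figure D5:**
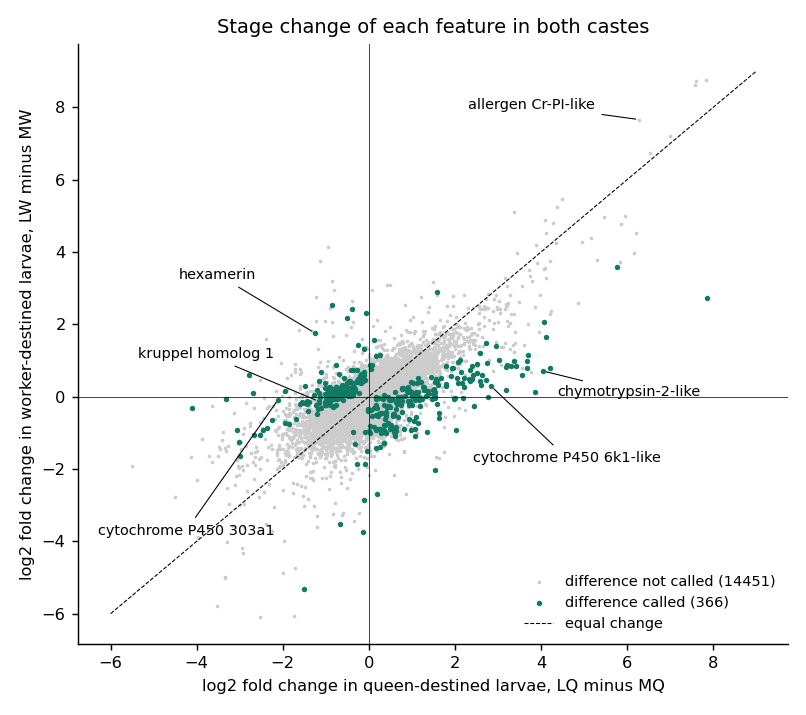
Log2 fold change in worker-destined larvae (LW minus MW, y axis) against that in queen-destined larvae (LQ minus MQ, x axis) for each of the 14817 features, in green for the 366 whose stage change differed between castes and in grey for the rest, with a dashed line where both changes are equal. Most features follow the line's direction, chymotrypsin-2-like lies at 4.04 in queen-destined and 0.71 in worker-destined larvae, and hexamerin lies in the quadrant of a fall in queen-destined and a rise in worker-destined larvae.

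Seen over all 3 stages of the queen pathway, the leading genes did not share a course. Means ± SD (n = 3 each) are given side by side, since MQ enters both steps. Kr-h1 had 432 ± 14.4 in EQ, 636 ± 44.4 in MQ and 275 ± 36.8 in LQ, and cytochrome P450 303a1 had 46.8 ± 6.80 in EQ, 90.2 ± 33.3 in MQ and 4.88 ± 2.05 in LQ, so both were highest at mid instar. Hexamerin had 6102 ± 389.8 in EQ, 8515 ± 2589.7 in MQ and 3638 ± 1408 in LQ. The allergen Cr-PI-like gene had 1372 ± 561 in EQ, 4601 ± 2096 in MQ and 340267 ± 43911 in LQ, and chymotrypsin-2-like had 462 ± 48.3 in EQ, 476 ± 151 in MQ and 7913 ± 943 in LQ, so the step to the last instar was the larger one for both. Ornithine aminotransferase had 158 ± 9.76 in EQ, 526 ± 12.2 in MQ and 2677 ± 292 in LQ and increased at each step. Limma called 1512 features higher in MQ than in EQ (10.2%) and 1129 lower (7.62%).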

How the data were processed

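Whole female larvae were pooled by colony, caste and instar, and their mRNA was sequenced on an Illumina instrument. According to the study's methods, the authors resampled all libraries to the size of the smallest (LW1), aligned reads with PatMaN to Bter_1.0 with at most 1 mismatch, kept reads that align at several places, assembled unannotated transcripts, removed weak features, corrected counts for length and quantile-normalised them. The deposited signal values are these normalised abundances, with no read counts or depths, so the precision rests on the spread between pools and tests for counts were not used. The authors dropped MQ3 and LQ3 for low read counts and MW1 for poor similarity to its replicates. MW1 was thus removed on its expression values, and how this changed the spread in MW was not tested.

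The 6 groups were taken from the labels. Limma 3.58.1 (R 4.3.3) was fitted to log2(abundance + 20) of 14817 features and 17 libraries with a mean for each group, an intensity trend and 11 residual degrees of freedom and Benjamini-Hochberg adjustment over all features. All groups share 1 spread per feature. The fit was tested on simulated data. LQ and MQ libraries of the same number come from the same colony according to the study's sample list, and their deviations from the group means correlated by 0.21, 0.38 and 0.34, so the fit with the replicate number as a block is given where it changes a call. The lane of each library is not given in the sources used here.

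Product names came from the readable opening part of the study's supplementary gene sheet for early-instar queen-destined larvae. Of its 1054 lines, 616 matched an annotated feature and 438 an unannotated transcript. These lines are not a random draw of the features, so shares among named features may not hold for all annotated ones. The lines named 597 features, 451 of them with a product that is not uncharacterised, and the coordinates were taken from the feature IDs. Values and tests of that sheet were not used. Features without a readable name are given by their ID, and no sequences are reported here.

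The members and gene lists were chosen with earlier results of these data known. Genes were named by a rule: the 15 largest rises and falls among named features past limma with ranges that do not overlap, the 5 largest of any kind in each direction, genes the study names, the 4 members of each list with the smallest p (all of lists of up to 8), and the 5 with the smallest p for the difference between castes. The features around hexamerin, the most abundant features and the runs of neighbours were added after values were seen. Alternatives were offsets of 1 and 50, a mean abundance of at least 100, median centring, the 6 libraries alone, the replicate block, a random effect of colony, no trend, library weights, and leaving out each library.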

Additional observations from a re-analysis of the deposited data

Results flagged for a closer look

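The stage change differed between queen- and worker-destined larvae, by the test of the difference itself, for 366 features, 12 of them among the genes named here. Values are the log2 stage change in queen-destined larvae less that in worker-destined larvae. It was above 0 for chymotrypsin-2-like (LOC105665851, 3.33), cytochrome P450 6k1-like (LOC100650427, 2.55) and NC_015772.1_3820761_3823080 (5.13), which has no name read here. It was below 0 for hexamerin (LOC100650745, -3.03), golgin-84 (LOC100648502, -1.03), probable cytochrome P450 303a1 (LOC100642209, -2.03), estradiol 17-beta-dehydrogenase 2 (LOC100645241, -1.40), MOXD1 homolog 1 (LOC100645538, -1.40), the unnamed NC_015767.1_2698404_2700314 (-3.80), Kr-h1 (-1.03), protein distal antenna-like (LOC100642203, -0.66) and ephrin-B2 (LOC100644552, -0.34).

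Chymotrypsin-2-like, golgin-84, hexamerin and estradiol 17-beta-dehydrogenase 2 were called in each of 18 alternatives, and cytochrome P450 303a1 in each of the 17 that gave it a value. Ephrin-B2 was called in 7 of 17 and protein distal antenna-like in 10 of 17, both at abundances near the offset. Groups of 3 libraries are too small for a test of single outlying libraries.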

How the results depend on the processing

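No named gene changed direction under any alternative where it or the alternative was past the threshold. Centring left the median log2 fold change of all features at -0.011. In the other fits of all features the counts between LQ and MQ stayed within 1.5 times the reported 3036 higher and 2759 lower, except that 1690 were higher when features needed a mean abundance of at least 100, which tests fewer features. That filter also gave 53 calls among the named genes against 90, 43 among list members against 100, and 187 differences between castes against 366. Leaving out 1 library gave 2425 to 2777 features higher, 2224 to 2585 lower, 84 to 91 named genes and 80 to 90 list members.

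The replicate block, which pairs the colonies, gave 2162 higher and 1995 lower, with 3807 features (65.7% of the calls) called in both fits and the same way in each. Under it 14 of 120 named genes lost their call and 1 gained one, and 58 list members were called, against 66 in the 6 libraries without the block. The block changed no other named call. The difference between castes was called for 713 features with colony as a random block and 1813 with library weights, and for 60 to 1147 when 1 library was left out. The cause was not tested. Offset fold changes over 1 numbered 591 higher and 424 lower with an offset of 1, 137 lower with an offset of 50, and 430 to 477 higher and 248 to 311 lower without 1 library. Depth is unknown, so small differences of weakly expressed features may lie below what these libraries can resolve.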
